A study of Sus scrofa with 6 samples.

Results

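The RNA levels of 9 lysosomal genes of pig chromosome 2 were compared between parthenogenetic (PA) and control (CN) embryos, to ask whether the lower RNA level of the protease gene CTSD in PA embryos was shared by other genes of the lysosome. The 9 members were CTSD, CTSF, IFI30, ACP2, ACP5, ARSB, MAN2B1, TCIRG1 and MCOLN1. They were chosen by name with the contrast of PA and CN in view, so their values are a description and carry no test. All 9 passed the filter on low counts, among 1652 genes that did so in all and 1539 on chromosome 2. A further 24 genes of the same chromosome were taken by name from lists of the pathway and are called lysosomal genes below. That each product lies in the lysosome was not checked.

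RNA came from whole embryos at embryonic day 21, with 3 in each group, all labelled as Landrace x Yorkshire x Duroc. The PA embryos grew from oocytes that were matured in vitro, activated by electric pulses without sperm and carried by surrogate gilts, and so have maternal genomes only. The CN embryos were untreated and, by the methods of the study, came from naturally mated gilts. Those methods give Landrace x Yorkshire x Duroc as the stock that supplied the PA oocytes, and Landrace x Yorkshire as the stock of the mated gilts. Fertilization, maternal stock, culture of the oocyte and embryo transfer differ together between the groups, and their parts cannot be told apart. The methods of the study name fewer gilts than embryos in each group, so some embryos of a group shared a gilt. The sources used here do not give the gilt of each embryo, and p-values measure the spread between these embryos alone. A whole embryo mixes many cell types, so fewer cells of a type and less RNA per cell cannot be told apart in any value below.

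The lysosome is the acidic compartment in which cells break down material taken up from outside or delivered by autophagy. Its soluble enzymes are made in the endoplasmic reticulum, tagged in the Golgi and sorted by adaptor and clathrin coats, while a proton pump keeps the lumen acidic and channels in the membrane release ions. Many lysosomal genes carry a short element with the letters CACGTG, named the E-box, within a longer one named CLEAR, through which the factor TFEB can raise them together. Lysosomal degradation is heavy in tissues that take up protein, among them the absorbing tubules of the kidney, and in macrophages and osteoclasts.

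Libraries held 3100284 to 3276414 estimated counts in the CN embryos, and 3360478 to 3573406 in the PA embryos. Annotated transcripts of chromosome 2 held 91.9% to 92.7% of them in CN and 82.8% to 91.2% in PA, with the lowest share in PA1. Most of the remainder lay on a single transcript that the annotation does not list, XR_902341385.1, which took 6.88% to 7.74% of the counts in CN, 16.93% in PA1, 10.2% in PA2 and 8.44% in PA3. Levels are given as TPM, Salmon's length-corrected share of all transcripts of an embryo, scaled to the same sum in each. TPM here is relative almost wholly to chromosome 2 and falls for every other gene where that transcript is high, whereas the log2 fold changes, PA over CN, were scaled by TMM factors that do not rest on the sum alone.

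The regulatory letters of the E-box are shown first, because a shared element is the best-known route by which lysosomal genes are raised together. The E-box was searched on both strands from 250 bases before to 50 bases after the start of the leading transcript, in 1530 promoters of tested genes, and was present in 144 (9.41%). Among the members, 2 of 9 held it, CTSF and MCOLN1, and among the other tested lysosomal genes 1 of 23, TPCN2. The 3 windows of Sscrofa11.1 are written 5′ to 3′ along the gene, with the E-box in capitals.
CTSF, chr2:5855021-5855040, plus strand: cgcgcccCACGTGcctcacg
MCOLN1, chr2:71613310-71613329, minus strand: tgtgggtCACGTGactgggg
TPCN2, chr2:4105282-4105301, minus strand: cagtgccCACGTGgtgctga
In CTSF the element began 56 bases before the annotated start and in TPCN2 it began 229 bases before. The MCOLN1 element began 2 bases after the start, and its flanks made it the one member with the longer CLEAR element, searched as the E-box with GT directly before and AC directly after it, which was found in 11 promoters (0.72%). CTSD, the member with the lowest PA level relative to CN, had no CACGTG in its window. E-boxes with other letters were not searched.

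The 250 bases before the CTSD start are printed because CTSD carries the largest difference of the 9. They lie at chr2:1197643-1197892 of Sscrofa11.1 and are read along the minus strand of the genome, toward the gene.
CTSD: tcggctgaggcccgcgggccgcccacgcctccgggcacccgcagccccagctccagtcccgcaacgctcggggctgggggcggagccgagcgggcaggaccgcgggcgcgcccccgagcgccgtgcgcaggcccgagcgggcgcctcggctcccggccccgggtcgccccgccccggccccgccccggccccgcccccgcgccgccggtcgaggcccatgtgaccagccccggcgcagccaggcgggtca
Of these bases 85.2% were G or C and 41 CpG pairs were present, against medians of 61.6% and 16 over the 1530 promoters. The same stretch of ACP5, the member with the highest PA level relative to CN, had 62.0% and 12 CpG pairs. How these stretches are methylated was not analysed here.

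CTSD, the aspartic protease cathepsin D that degrades proteins in the acidic lumen, was the most abundant member. Its gene lies at chr2:1188548-1197642 on the minus strand and has 1 listed transcript of 9 exons. The CTSD level was 3607, 4237 and 3496 TPM in CN1, CN2 and CN3, and 1337, 1246 and 1275 TPM in PA1, PA2 and PA3. The groups did not overlap, and the 3 PA embryos lay close together. Means were 3780 ± 400 TPM in CN and 1286 ± 46.5 TPM in PA (SD, n = 3), 2.94-fold higher in CN. Behind them stood 12654 to 14025 estimated counts per CN embryo, and 4780 to 5499 per PA embryo. The log2 fold change was -1.48 ± 0.11 (SE), and it stayed between -1.57 and -1.40 over all 15 ways of fitting, including without each embryo in turn.

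CTSD was the only member called lower, at an adjusted p under 0.05 in edgeR's quasi-likelihood test with Benjamini-Hochberg adjustment, and also the only one with a log2 fold change below -1. Beside this 1 call in 9, 4.42% of the 1652 tested genes were called lower, 2.12% higher and 6.54% in either direction, and 2.78% were lower with a log2 fold change below -1, and nothing is read from the count because the members were proposed with the contrast known. No member was called higher (1 at an unadjusted p under 0.05). DESeq2, library totals without TMM and a fit with no expression filter each called 3 members lower, CTSD, ARSB and IFI30, and 1 higher, ACP5. Those fits also called more genes of chromosome 2 lower, 6.6%, 6.5% and 6.27% in that order beside 4.68% in the reported fit. By level, 4 members had all PA embryos below all CN embryos in TPM (CTSD, ARSB, IFI30 and TCIRG1), beside 16.6% of the tested genes, and 1 had all above (ACP5), beside 5.02%. On TMM-scaled counts the 4 became 3, without TCIRG1, beside 13.6%, and ACP5 stayed the 1 above, beside 14.6%. The median log2 fold change of the 9 was -0.15, with 6 negative and 3 positive, and that of the 8 without CTSD was -0.12. Over all 1652 genes it was 0.02, with 777 negative and 875 positive.

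**Figure D1:**
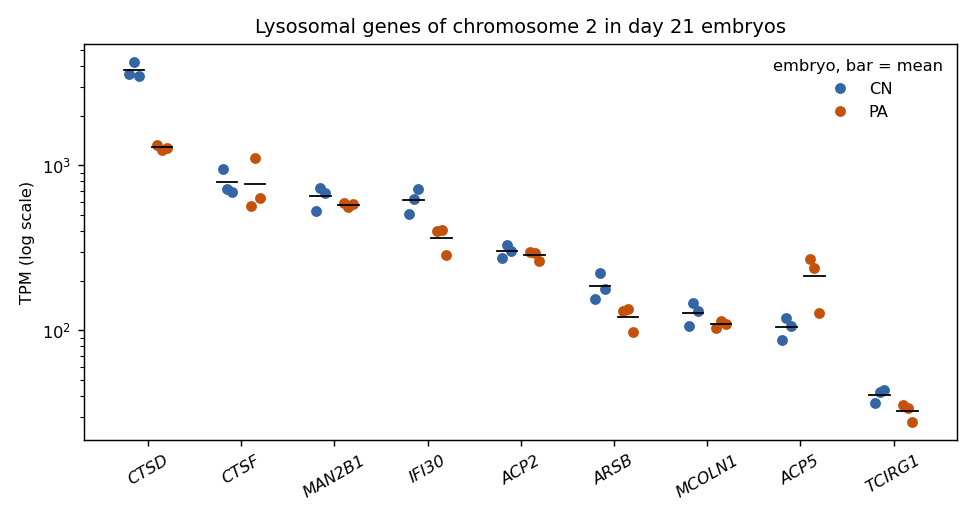
TPM of each of the 9 members in the 3 CN and 3 PA embryos on a log10 axis, 1 point per embryo, with a line at each group mean. CTSD lies at 3496 to 4237 TPM in CN and 1246 to 1337 TPM in PA, ACP5 is the one member with every PA point above every CN point, and ACP2, MAN2B1, MCOLN1 and CTSF overlap.

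CTSF and IFI30, the other members that act on proteins, did not follow the size of the CTSD difference. CTSF, the cysteine protease cathepsin F (chr2:5855083-5860258, plus strand), stood at 954, 724 and 694 TPM in the CN embryos and at 566, 1104 and 630 TPM in the PA embryos. PA2 was the highest of all 6 and PA1 and PA3 the lowest, so the groups overlapped widely. The log2 fold change was 0.01 ± 0.27 and rested on PA2, without which it was -0.35 ± 0.20. IFI30, the thiol reductase that opens disulfide bonds of proteins before they are degraded (chr2:59629762-59633714, minus strand), stood at 507, 622 and 720 TPM in CN and 399, 404 and 287 TPM in PA. The groups were apart, with PA3 the lowest. IFI30 had a log2 fold change of -0.67 ± 0.19, and -0.47 ± 0.14 without PA3.

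Of the 2 acid phosphatases, ACP2 had overlapping groups and ACP5 did not, and neither was called in the reported fit. ACP2, the lysosomal acid phosphatase found in most tissues (chr2:15334015-15342531, plus strand), was at 275, 329 and 305 TPM in CN and 301, 296 and 265 TPM in PA. The log2 fold change was 0.00 ± 0.11. ACP5, the tartrate-resistant acid phosphatase known from osteoclasts and activated macrophages (chr2:70206159-70209855, minus strand), was at 87.5, 119 and 107 TPM in CN and 270, 240 and 128 TPM in PA. All PA embryos were above all CN embryos, but PA3 was only slightly so. ACP5 had a log2 fold change of 1.13 ± 0.29, and 1.44 ± 0.14 without PA3, a setting in which ACP5 was called higher. Its counts were 237 to 273 in CN and 333 to 763 in PA.

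Because TPM shares a fixed sum, the phosphatases were also compared within each embryo. The ratio of ACP5 to ACP2 was 0.318, 0.361 and 0.350 in CN and 0.897, 0.809 and 0.483 in PA, without overlap between the groups, and this ratio was not tested. Osteoclast markers could not be set beside ACP5, since none of the 9 genes of that list lay on chromosome 2. The macrophage list is given below.

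The 2 members that take apart glycans differed less than CTSD. ARSB, the arylsulfatase that removes sulfate from dermatan and chondroitin sulfate (chr2:87614938-87779553, minus strand), was at 155, 224 and 177 TPM in CN and 131, 135 and 98.4 TPM in PA. The groups did not overlap, with CN1 and PA2 the nearest. The log2 fold change of ARSB was -0.52 ± 0.17, and -0.33 ± 0.12 without PA3. MAN2B1, the alpha-mannosidase that trims N-linked glycans (chr2:66329051-66347051, plus strand), was at 533, 734 and 679 TPM in CN and 588, 562 and 583 TPM in PA. CN1 was the lowest of the 6 and the groups overlapped. MAN2B1 had a log2 fold change of -0.09 ± 0.10.

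The membrane members were among the least abundant and had small differences. TCIRG1, the a3 subunit of the proton pump (chr2:4844627-4860562, minus strand), was at 36.3, 42.3 and 43.3 TPM in CN and 35.3, 33.7 and 27.7 TPM in PA. CN1 and PA1 lay about 1 TPM apart. Its log2 fold change was -0.25 ± 0.15, and -0.09 ± 0.13 without PA3. MCOLN1, the calcium-releasing channel mucolipin 1 (chr2:71602888-71613331, minus strand), was at 106, 147 and 130 TPM in CN and 103, 114 and 110 TPM in PA. The groups overlapped through CN1, and the log2 fold change was -0.15 ± 0.11.

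PA3 was the lowest of the 6 embryos for IFI30, ACP2, ARSB and TCIRG1 and the lowest PA embryo for ACP5. Without it, the log2 fold changes of ARSB, IFI30 and TCIRG1 moved toward 0 by more than 1 SE, and that of ACP2 became 0.13 ± 0.10. The CTSD difference did not rest on that embryo.

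**Figure D2:**
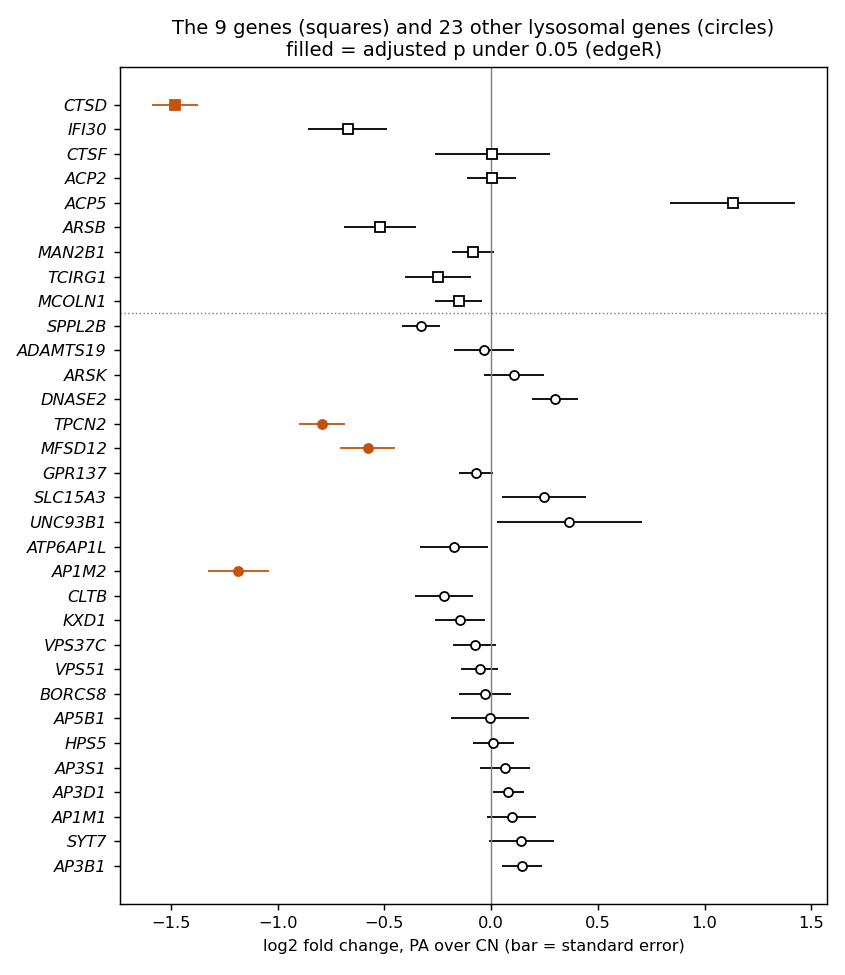
Log2 fold change, PA over CN, with its standard error as a bar, for the 9 members (squares) and the 23 other tested lysosomal genes of chromosome 2 (circles), filled where the adjusted p was under 0.05 in edgeR. CTSD at -1.48 and AP1M2 at -1.18 are the lowest, ACP5 at 1.13 the highest, and most of the rest lie within 0.5 of 0.

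Set against its companions inside each embryo, CTSD was lower in PA whichever member served as the reference. Its share of the summed TPM of the 9 members was 57.6%, 59.0% and 55.0% in CN and 35.9%, 30.1% and 37.5% in PA, with means of 57.2% ± 2.02 and 34.5% ± 3.85 (SD, n = 3). The ratio of CTSD to MAN2B1 was 6.77, 5.77 and 5.15 in CN and 2.27, 2.22 and 2.19 in PA. Over each of the 8 other members the CTSD ratio was lower in PA without overlap. The narrowest margin was over IFI30, where the lowest CN ratio was 4.86 and the highest PA ratio 4.43. The summed TPM of the 9 was 6597 ± 505 in CN and 3756 ± 366 in PA, a ratio of 0.569. Without CTSD it was 2817 ± 147 and 2470 ± 386, a ratio of 0.877 with overlapping groups, at 2654 to 2940 (CN) against 2129 to 2889 (PA).

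The gene levels of the members came mostly from 1 annotated transcript each, and its share overlapped between the groups wherever more than 1 transcript had reads. CTSD, ACP2 and IFI30 have a single listed transcript, and ARSB had its whole TPM in 1 of 2. In CTSF the transcript XM_005654664.2 held 92.6% ± 2.38 of the gene's TPM in CN and 94.2% ± 0.29 in PA. In MAN2B1 the leading share was 97.2% ± 1.40 in CN and 95.8% ± 0.32 in PA, and in MCOLN1 97.1% ± 1.29 and 96.9% ± 1.63. TCIRG1 was more divided, with 78.8% ± 7.75 and 78.3% ± 14.8 in XM_005660613.3. The ACP5 transcript NM_214209.1 held 61.5%, 95.5% and 86.0% in CN and 82.5%, 86.3% and 83.1% in PA, so the one embryo that stood apart was CN1. How Salmon divides reads between overlapping transcripts was not measured.

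The library kit does not keep the strand, and reads in exons that overlap a gene of the opposite strand cannot be assigned to either by strand. CTSD, CTSF, ACP5, MAN2B1 and MCOLN1 share no exonic base with another gene. TCIRG1 shares 609 of 6514 exonic bases with CHKA, whose own log2 fold change was -0.20. IFI30 shares 179 bases with LOC106507303, which had at most 10 counts in any embryo. ARSB shares 174 bases with LOC110259405 and ACP2 shares 48 with NR1H3.

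The other lysosomal genes of chromosome 2 were tested in the same fit. Of 24, 23 passed the filter, and CTSW, a protease of cytotoxic lymphocytes, did not. CTSW was at 3.90, 2.00 and 4.59 TPM in CN and 0.413, 0.881 and 0.452 TPM in PA, without overlap, on 4 to 10 and 1 to 2 counts, and was called lower in the fit with no expression filter. Lower RNA in PA was called for 3 of the 23, MFSD12, TPCN2 and AP1M2, beside 4.42% of all tested genes. None was called higher by edgeR or by DESeq2, and at an unadjusted p under 0.05 edgeR had 1, DNASE2, beside 4 lower. The log2 fold changes were negative for 13 and positive for 10, with a median of -0.03 beside 0.02 over all genes. By group the lower calls were 2 of 5 membrane and transport proteins and 1 of 13 sorting genes.

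AP1M2, the medium chain of the AP-1 adaptor used in epithelial cells for sorting at the Golgi and endosomes (chr2:69341289-69353906, minus strand), was at 109, 122 and 102 TPM in CN and 42.5, 42.1 and 56.0 TPM in PA. The groups lay far apart. Its log2 fold change was -1.18 ± 0.14, with an adjusted p of 0.00208 in edgeR. AP1M1, the widely expressed form of the same chain, was at 593 ± 120 TPM in CN and 600 ± 61.3 TPM in PA, with a log2 fold change of 0.10 ± 0.12 and an adjusted p of 0.682 in edgeR. The contrast between these 2 forms was not tested itself.

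TPCN2, a cation channel of the lysosome membrane (chr2:4069267-4105065, minus strand), was at 175, 241 and 180 TPM in CN and 97.9, 106 and 124 TPM in PA. All PA embryos were below all CN embryos. The log2 fold change of TPCN2 was -0.79 ± 0.11, with an adjusted p of 0.00357 in edgeR. TPCN2 and AP1M2 passed in all 15 ways of fitting.

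MFSD12, a cysteine carrier of lysosomes and melanosomes (chr2:75098531-75120795, plus strand), was at 105, 156 and 148 TPM in CN and 87.7, 74.3 and 97.2 TPM in PA. Its log2 fold change was -0.58 ± 0.13, with an adjusted p of 0.0382 in edgeR. The call was close to the threshold. MFSD12 passed in 10 of the 15 fits and was lost in 5, without CN2, CN3, PA2 or PA3, at adjusted p from 0.0977 to 0.135, and with the replicate number as a block, at adjusted p = 0.0749. MFSD12 shares 697 of 4403 exonic bases with HMG20B and C2H19orf71 of the opposite strand, and HMG20B had a log2 fold change of 0.11 and an adjusted p of 0.478 in edgeR.

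The remaining genes of the pathway shown here stayed nearer to 0. SPPL2B, an intramembrane protease, was at 251 ± 35.6 TPM in CN and 190 ± 16.2 TPM in PA, with a log2 fold change of -0.33 ± 0.09 and an adjusted p of 0.0668 in edgeR. DNASE2, the acid nuclease that digests DNA of engulfed cells, was at 189 ± 13.1 and 221 ± 15.1 TPM, with a log2 fold change of 0.30 ± 0.11 and an adjusted p of 0.143 in edgeR. In TPM, 7 of the 23 genes had all PA embryos below all CN embryos, SPPL2B and CLTB among them, beside 16.6% of all tested genes. Only 1 had all above, DNASE2, beside 5.02%. On TMM-scaled counts the 7 became 4, SPPL2B, MFSD12, TPCN2 and AP1M2, beside 13.6%. On that scale 2 lay above, DNASE2 among them, beside 14.6%. GPR137, a membrane protein of the lysosome, had a log2 fold change of -0.07 ± 0.08, and ATP6AP1L, a relative of a proton pump accessory subunit, -0.17 ± 0.16. Among the sorting genes the most abundant in CN were CLTB, a clathrin light chain, and AP3S1, a chain of the AP-3 adaptor. CLTB was at 698 ± 38.7 TPM in CN and 573 ± 52.2 TPM in PA, with a log2 fold change of -0.22 ± 0.14, and AP3S1 was at 670 ± 54.8 and 673 ± 34.8 TPM, with a log2 fold change of 0.07 ± 0.12. The adjusted p of these 4 genes in edgeR was 0.662, 0.584, 0.409 and 0.791, in the order GPR137, ATP6AP1L, CLTB and AP3S1.

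Markers of cell types that a whole embryo could hold in unequal amounts were measured beside these results. Genes of absorbing tubule epithelium were called lower in PA for 8 of 11 tested, beside 4.42% of all tested genes. None of the 11 was called higher by edgeR, beside 2.12%, or by DESeq2. The list was chosen with earlier results of these data known, so nothing is read from its count or its sum. The summed TPM of the list, over these 11 and SLC22A11, which did not pass the filter, was 1257 to 1701 for CN against 167 to 389 for PA, a ratio of 0.201, and the median log2 fold change of the 11 was -2.10. The 8 were SLC22A12 (-4.32), BHMT2 (-4.00), DMGDH (-2.85), SLC22A8 (-2.82), SLC34A1 (-2.51), CDHR2 (-2.10), SLC5A12 (-2.10) and CDHR5 (-1.98), transporters, brush-border cadherins and enzymes of betaine metabolism. With no expression filter the fold changes of SLC34A1, BHMT2 and SLC5A12 stayed alike but their calls were lost, at adjusted p of 0.097, 0.118 and 0.0988 in edgeR. Of the 3 that were not called, USH1C was at 18.9 to 22.7 TPM in CN and 8.99 to 13.7 TPM in PA, BHMT at 65.9 to 91.2 and 23.0 to 145 TPM, and SLC22A6 at 9.86 to 17.9 and 13.5 to 16.4 TPM. The 8 tubule genes moved in the same direction as CTSD, AP1M2 and TPCN2, and their part in the lower levels of those genes was not tested.

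Macrophage markers were called lower for 1 of 7 tested, beside 4.42% of all tested genes, and none was called higher, beside 2.12%. The 1 was LYVE1, at -1.14 ± 0.15 with an adjusted p of 0.00324 in edgeR. The summed TPM of the 7 was 410 to 566 in CN and 339 to 409 in PA, a ratio of 0.736. SPI1, the most abundant of them and the defining factor of the myeloid line, was at 119 to 159 TPM in CN and 90.5 to 130 TPM in PA, with a log2 fold change of -0.23 ± 0.19 and an adjusted p of 0.54 in edgeR. CSF1R was at 67.0 to 148 TPM in CN and 83.6 to 92.8 TPM in PA. The log2 fold changes were negative for 5 of the 7 and positive for 2. Of those 2, MPEG1 was at 34.2 to 43.1 TPM in CN and 36.7, 53.7 and 54.2 TPM in PA, with a log2 fold change of 0.34 ± 0.16 and an adjusted p of 0.268 in edgeR, and ADGRE1 was at or below 2.95 TPM in every embryo. The part of macrophages in the ACP5 and IFI30 levels was not tested.

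Markers of liver (4 tested), erythroid cells (3) and trophoblast (1 of 3) gave no call in edgeR, beside 6.54% of all tested genes. At an unadjusted p under 0.05 and with DESeq2 there was 1, KLF1, an erythroid factor at -0.74 ± 0.25 with an adjusted p of 0.127 in edgeR. KLF1 stood at 226 TPM in CN3 beside 106 and 130 TPM in CN1 and CN2, its log2 fold change was -0.36 without CN3, and it was also called with no expression filter, at an adjusted p of 0.000274 in edgeR. SERPING1, the most abundant liver marker, was at -0.07 ± 0.15, and the liver sum had a ratio of 0.897. ELF5, the tested trophoblast marker, was at 4.89 to 12.9 TPM in CN and 7.70 to 14.7 TPM in PA, while the pregnancy-associated glycoproteins PAG6 and PPAG3 were at or near 0 in all 6 embryos.

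**Figure D3:**
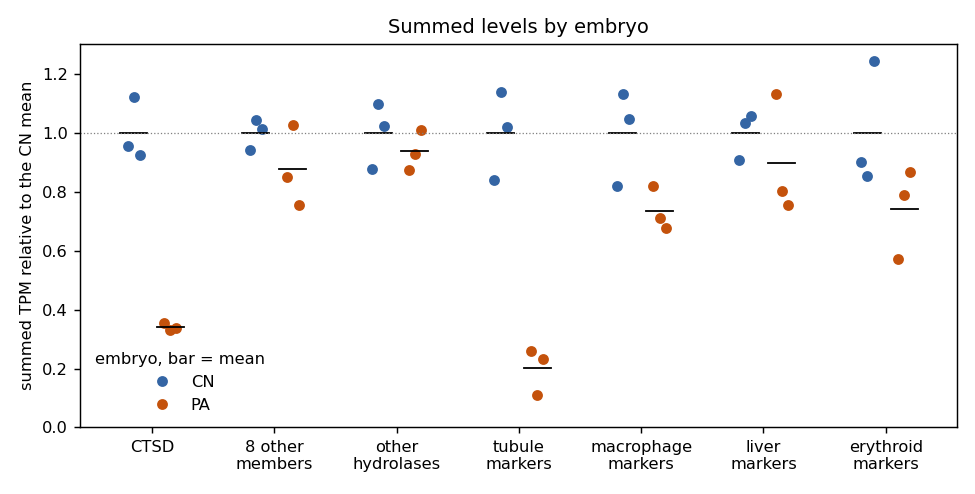
Summed TPM of CTSD, the 8 other members, 5 genes listed as other lysosomal hydrolases and 4 marker lists in each of the 6 embryos. Each sum is divided by its CN mean, on a linear axis from 0, with a line at each group mean. The PA mean is 0.340 for CTSD and 0.201 for the tubule markers, while the 8 members without CTSD have a PA mean of 0.877 and overlap between the groups.

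The genes whose pattern over the 6 embryos was most like that of CTSD were sought among 1538 others on chromosome 2, by Pearson's r of the TMM-scaled, length-corrected log2 CPM. The highest were CYSTM1 (0.999), CEND1 (0.998), MISP3 (0.994), EPS8L2 (0.993) and BBOX1 (0.992). All 5 were lower in PA, with log2 fold changes from -2.62 (BBOX1) to -0.93 (CEND1). BBOX1, the last enzyme of carnitine synthesis, is active in kidney and liver. With 6 embryos in 2 groups such an r is set largely by the step between the groups and is given as a description. Of the lysosomal genes the nearest were AP1M2 (0.976, rank 20) and TPCN2 (0.965, rank 25). Among the members, IFI30 (0.835) and ARSB (0.826) ranked 140 and 142, MCOLN1 (0.687) and TCIRG1 (0.669) ranked 249 and 270, MAN2B1 had 0.446, ACP2 0.151, CTSF 0.048 and ACP5 -0.713.

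CTSD also stands apart from the other members by position, near the imprinted gene IGF2, a paternally expressed growth factor. CTSD lies 0.272 Mb from IGF2, and the others from 3.348 Mb (TCIRG1) to 86.119 Mb (ARSB). IGF2 was at 14375 to 19298 TPM in CN and 278 to 544 TPM in PA, with a log2 fold change of -5.41 ± 0.29. Within 500 kb of CTSD 20 annotated genes were tested, CTSD included. Of these 3 were called lower, CTSD, TNNI2 and IGF2, beside 4.42% of all tested genes. Only 1 was called higher, BRSK2, at 0.55 with an adjusted p of 0.0226 in edgeR, beside 2.12%. The window was drawn around CTSD, so nothing is read from these counts. The study places H19 and IGF2-AS in this region and states that the NCBI gene annotation lacks them, so they are not among the 20.

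The next gene on one side is IFITM10, 5.2 kb away, with 25 to 81 counts a library for CN and 8 to 24 for PA. Its log2 fold change was -1.36 ± 0.59 and its adjusted p 0.233 in edgeR, and CN1 at 81 counts stood apart from CN2 and CN3 at 26 and 25. On that side DUSP8, a phosphatase of MAP kinases 166.1 kb away, was at 81.8 ± 6.09 TPM in CN and 90.5 ± 5.82 TPM in PA, with an adjusted p of 0.275 in edgeR. On the other side TNNI2, the fast skeletal troponin I gene 53.9 kb away, was at 229 ± 16.2 TPM in CN and 86.3 ± 2.47 TPM in PA. Its log2 fold change was -1.34 ± 0.15, with an adjusted p of 0.00169 in edgeR. LSP1, a leukocyte gene 64.3 kb away and beyond TNNI2, was at 67.6 ± 8.15 and 68.2 ± 12.6 TPM, with a log2 fold change of 0.08 ± 0.17 and an adjusted p of 0.821 in edgeR. Genes called lower and genes near 0 thus lay side by side around CTSD. Which parental copy of CTSD was expressed was not measured.

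**Figure D4:**
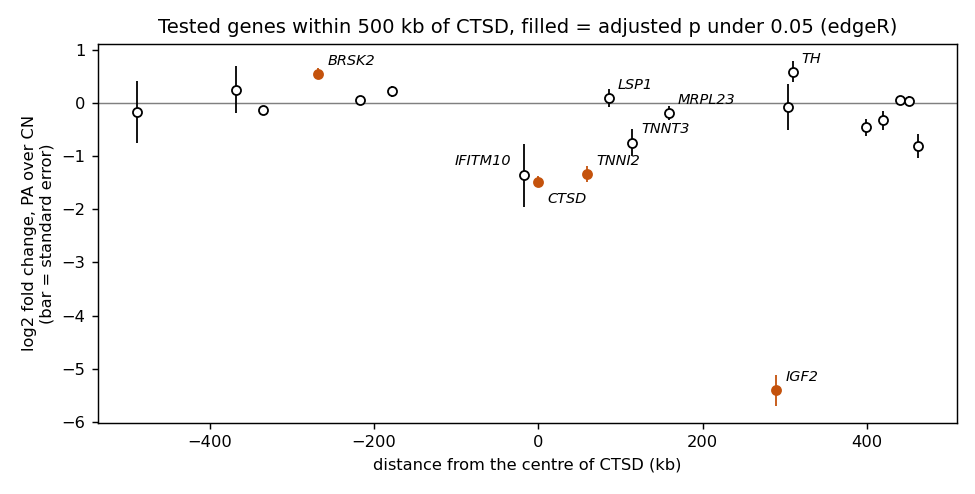
Log2 fold change, PA over CN, of the 20 annotated genes tested within 500 kb of CTSD, by distance in kb from its centre. Bars are standard errors. Filled points passed an adjusted p under 0.05 in edgeR: CTSD at -1.48, TNNI2 at -1.34 and IGF2 at -5.41 below 0, and BRSK2 at 0.55 above it.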

How the data were processed

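RNA of whole embryos (3 PA, 3 CN) was sequenced from polyA-selected TruSeq libraries. The authors quantified reads with Salmon 1.3.0 and deposited, per transcript and embryo, estimated counts, which are neither whole nor normalized, and TPM. The build named in the submitters' processing notes is Sscrofa11.1. Of 81496 transcripts, 81322 were joined to genes by NCBI Annotation Release 106 of that build, 6904 of them on chromosome 2, and 174 were not listed. Only chromosome 2 loci were used for members and lists.

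Counts and TPM were summed per gene. Counts were rounded and fitted on all genes in R 4.3.3 with edgeR 4.0.16: TMM factors, a transcript length offset as in tximport, filterByExpr (minimum count 10, total 15), and the robust quasi-likelihood test, two-sided, with Benjamini-Hochberg adjustment over 1652 genes. Calls used an adjusted p of 0.05, and where stated an absolute log2 fold change of 1. The SE of a log2 fold change was derived as its absolute value over the square root of the test's F statistic. The study's test, DESeq2 (here 1.42.0), was an alternative, as were library totals, no length offset, other filters, chromosome 2 alone, IGF2 and the transcript taken as H19 left out, the replicate block, and leaving out each embryo. TMM-scaled counts in place of TPM for overlap were added after the data were seen. Sums and overlaps were computed with pandas 2.3.3 (Python 3.11.15). Promoter letters came from the RefSeq genome of the same build. The fit was tested on simulated data.

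The members and lists were chosen with earlier results of these data known. A list gene is not reported here and enters no list count or sum, though it stayed in the fit. Named genes are the 9 members, list genes that passed, the 2 most abundant per lysosomal list, the most abundant marker per list, the 5 genes most like CTSD and the 2 tested genes on each side of it. AP1M1, CTSW, CSF1R, MPEG1, ADGRE1, SLC22A11, SLC22A6, USH1C, BHMT, PAG6, PPAG3, IGF2, BRSK2 and the genes that overlap exons were added after their values were seen. No libraries within a group were alike to sampling noise (chi-square of 5.8 to 95.1 per degree of freedom). Depth of 3100284 to 3573406 counts sets the counting error.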

Additional observations from a re-analysis of the deposited data

How the results depend on the processing

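The number of members called lower was 1 in the reported fit and 3 with DESeq2, with library totals without TMM and with no expression filter, while the share of chromosome 2 genes called lower rose from 4.68% to 6.6%, 6.5% and 6.27%. The number called higher was 0, and 1 under the same 3 settings, each time ACP5. Leaving out embryos gave from 0 to 1 member called higher, with ACP5 called without PA3, and 1 member called lower each time. The 3 other lysosomal genes called lower became 2 to 3 when single embryos were left out, and 4 with DESeq2, library totals and chromosome 2 alone (SPPL2B added) and with no expression filter (CTSW added). Without CN2, CN3, PA2 or PA3 only TPCN2 and AP1M2 of the 23 passed. With the replicate number as a block 2 passed, TPCN2 and AP1M2, and MFSD12 (adjusted p = 0.0749) did not. Deviations of same-numbered embryos correlated at 0.297, 0.146 and 0.0662, so the numbers were not taken to pair the embryos. SPPL2B passed with DESeq2, library totals and chromosome 2 alone, at adjusted p of 0.0313, 0.0428 and 0.0488. SLC34A1, BHMT2 and SLC5A12 lost their calls with no expression filter. The CTSF share in its leading transcript in PA was 93.39% by estimated counts. On chromosome 2 the genes called numbered 107, and from 47 (without CN2) to 190 (no expression filter) elsewhere, with 53 without CN3, 57 without PA2 and 69 without PA3. No result changed sign where it was called. The causes were not tested.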
